A study of Homo sapiens with 6 samples.

Results

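The genes described here decide what becomes of pyruvate, the end product of glycolysis: reduction to lactate, export of that lactate, or entry into the mitochondrion for oxidation. They were chosen by name as the lactate dehydrogenase subunits LDHA and LDHB, the monocarboxylate transporters SLC16A1 and SLC16A3 with their partner BSG, the pyruvate dehydrogenase kinases PDK1, PDK2, PDK3 and PDK4, and the mitochondrial pyruvate carrier subunit MPC1. All 10 were present in the table, out of 22153 genes. The cells were EA.hy926, a human hybrid of umbilical vein endothelium and the A549 lung carcinoma line, grown in high-glucose medium with fetal bovine serum and penicillin/streptomycin at 37°C. The normoxia group was 3 libraries of cells at 20% O2 and the hypoxia group 3 libraries of cells moved to 1% O2 for 8 h once they were nearly confluent. The labels name no genetic change and no other agent in either group, and both come from the same established line. The labels do not say whether the replicates were separate cultures, so every p-value here speaks only for the spread among these 6 libraries, which may be technical.

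Lactate dehydrogenase is a tetramer built from A and B subunits. The A subunit is known as the form suited to making lactate, and the B subunit as the form common in oxidative tissues. Monocarboxylate transporters carry lactate with a proton across the plasma membrane and need basigin, the product of BSG, to reach the surface. The kinases phosphorylate and switch off pyruvate dehydrogenase, the mitochondrial gate to the citric acid cycle, and MPC1 pairs with MPC2 to bring pyruvate through the inner membrane. LDHA, SLC16A3 and PDK1 are textbook targets of hypoxia-inducible factors (HIF), which bind the core letters ACGTG or GCGTG. Endothelial cells are known to draw most of their ATP from glycolysis even when oxygen is plentiful.

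Each library held 17226736 to 18652704 reads assigned to genes. Values below are these reads divided by the size factor of the library (scaled reads), unless a level per length (FPKM scale) is named. The hypoxia label was checked on known hypoxia genes: in all 8 of a short list the hypoxia libraries lay above the normoxia libraries, with BNIP3 at 520 to 694 scaled reads in normoxia and 5879 to 7254 in hypoxia. Of 12 endothelial markers, 10 had at least 10 scaled reads in every library, while CLDN5 and EMCN were below 10 in all of them. The summed endothelial markers ranged from 51701 to 115235 in normoxia and from 58688 to 157427 in hypoxia. Of 6 epithelial markers, the 5 with values summed to 26066 to 42693 over all libraries, carried by KRT8 and KRT18. CDH1 had no values and SFTPC was below 10. Of 6 leukocyte markers, the 4 with values summed to 23.5 to 107. Of 7 fibroblast and mural markers, the 4 with values summed to 119 to 243. PTPRC, CD3E, COL3A1, DCN and LUM had no values. Libraries differed in how their values leaned with gene GC content. The correlation across genes between a library's deviation from the gene mean and GC content ran from -0.52 in normoxia replicate 3 to 0.61 in normoxia replicate 1, and it was 0.46 in hypoxia replicate 2. For the 7 members tested on the FPKM scale, the log2 difference and within-group SD after a GC correction are also given. The part of this lean in the results was not tested.

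The promoter windows of members whose normoxia and hypoxia libraries did not overlap, and of LDHB for contrast with LDHA, are shown because they hold the HIF core letters to different degrees. RefSeq windows (GRCh38.p14, 250 bases before to 50 after an annotated start) were found for 9 members, with 18 windows in all, and for a gene with several starts the window with the most ACGTG is printed. Sequences read 5′ to 3′ on the strand of the gene, and capitals mark ACGTG or GCGTG on either strand (CACGT and CACGC are the reverse complements). The windows are chr11:18394313-18394612 (plus strand) for LDHA, chr12:21657793-21658092 (minus strand) for LDHB, chr17:82228792-82229091 (plus strand) for SLC16A3, chr2:172555840-172556139 (plus strand) for PDK1 and chrX:24465036-24465335 (plus strand) for PDK3.
LDHA: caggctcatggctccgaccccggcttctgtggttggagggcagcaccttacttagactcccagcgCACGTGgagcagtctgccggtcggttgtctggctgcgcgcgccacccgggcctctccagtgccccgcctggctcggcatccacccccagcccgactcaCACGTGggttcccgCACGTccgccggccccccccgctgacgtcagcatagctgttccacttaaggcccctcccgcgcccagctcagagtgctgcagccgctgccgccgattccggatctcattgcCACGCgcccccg
LDHB: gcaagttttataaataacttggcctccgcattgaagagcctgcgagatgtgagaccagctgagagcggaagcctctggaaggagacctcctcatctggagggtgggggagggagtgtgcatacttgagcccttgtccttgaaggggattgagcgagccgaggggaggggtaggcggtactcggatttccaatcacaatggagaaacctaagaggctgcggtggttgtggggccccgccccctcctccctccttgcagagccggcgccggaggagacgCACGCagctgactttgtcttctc
SLC16A3: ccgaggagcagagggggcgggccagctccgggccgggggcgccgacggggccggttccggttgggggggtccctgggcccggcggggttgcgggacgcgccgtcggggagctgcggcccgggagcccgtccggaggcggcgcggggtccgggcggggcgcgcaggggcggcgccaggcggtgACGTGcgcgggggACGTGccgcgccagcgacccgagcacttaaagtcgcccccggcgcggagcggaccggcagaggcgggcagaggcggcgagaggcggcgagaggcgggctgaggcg
PDK1: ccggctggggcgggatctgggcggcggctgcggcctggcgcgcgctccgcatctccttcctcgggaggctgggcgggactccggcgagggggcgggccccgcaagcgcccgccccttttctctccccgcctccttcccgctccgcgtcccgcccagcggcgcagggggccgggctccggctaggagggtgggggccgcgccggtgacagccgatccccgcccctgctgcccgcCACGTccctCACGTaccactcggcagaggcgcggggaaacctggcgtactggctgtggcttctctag
PDK3: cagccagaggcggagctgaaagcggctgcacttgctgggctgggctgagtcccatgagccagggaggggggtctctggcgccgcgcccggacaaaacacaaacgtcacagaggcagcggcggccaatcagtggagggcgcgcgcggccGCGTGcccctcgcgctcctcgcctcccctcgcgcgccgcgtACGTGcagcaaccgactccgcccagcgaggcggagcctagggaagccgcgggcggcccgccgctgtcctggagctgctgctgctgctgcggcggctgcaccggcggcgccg

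The LDHA window held 6 matches, 5 of them ACGTG, with a CACGTG counted on both strands. The SLC16A3 and PDK1 windows held 2 matches each, all ACGTG at separate positions. LDHA and PDK1 have 2 windows each and SLC16A3 has 5, and their windows not printed held no ACGTG. The PDK3 window held 1 ACGTG and 1 GCGTG, and the LDHB window a single GCGTG. Among all 35116 RefSeq windows of this length, 48.4% held at least 1 of these motifs and 21.4% held ACGTG, and 8.82% held ACGTG at least 2 times. A single CACGTG counts as 2 in that last share. Of the 18 windows of members, 11 (61.1%) held at least 1 of the motifs and 6 held ACGTG. Where a gene had several windows, the printed one was picked for its ACGTG, so it cannot be set directly against these shares. The letters were also present in members whose groups overlapped. Of the 2 windows of BSG, 1 held 6 matches, 2 of them ACGTG. Of the 3 windows of PDK2, 1 held 3 matches, 2 of them ACGTG. In BSG and in PDK2 the 2 ACGTG are 1 CACGTG counted on both strands. The MPC1 window held 2 GCGTG. The window of PDK4 held none, and SLC16A1 had no window. A match is only a run of letters and was not tested as a binding site.

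LDHA rose in hypoxia, and the libraries of the groups stood apart, all in the same direction, for SLC16A3, PDK1 and PDK3. Each of these 4 genes had a mean 3.24-fold to 3.89-fold higher in hypoxia. The other 6 members overlapped between groups. In limma, 1 of the 7 members that passed the FPKM filter had an adjusted p below 0.05, LDHA, beside 0.0977% of all 10237 genes tested. On the same genes edgeR called 1 of 7 members, LDHA, also beside 0.0977%, and DESeq2 called 2, LDHA and SLC16A3, beside 0.489% in either direction and 0.44% higher in hypoxia. Members whose hypoxia libraries all lay above all normoxia libraries numbered 4 of 10, beside 4.49% of the 13355 genes with at least 10 scaled reads in at least 3 libraries. No member lay apart in the lower direction, beside 3.17% of those genes. The median log2 difference of the 7 members tested was 0.05, beside 0.00 for all genes tested. Over all 10 members fitted on scaled reads it was 0.09, beside -0.01.

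**Figure D1:**
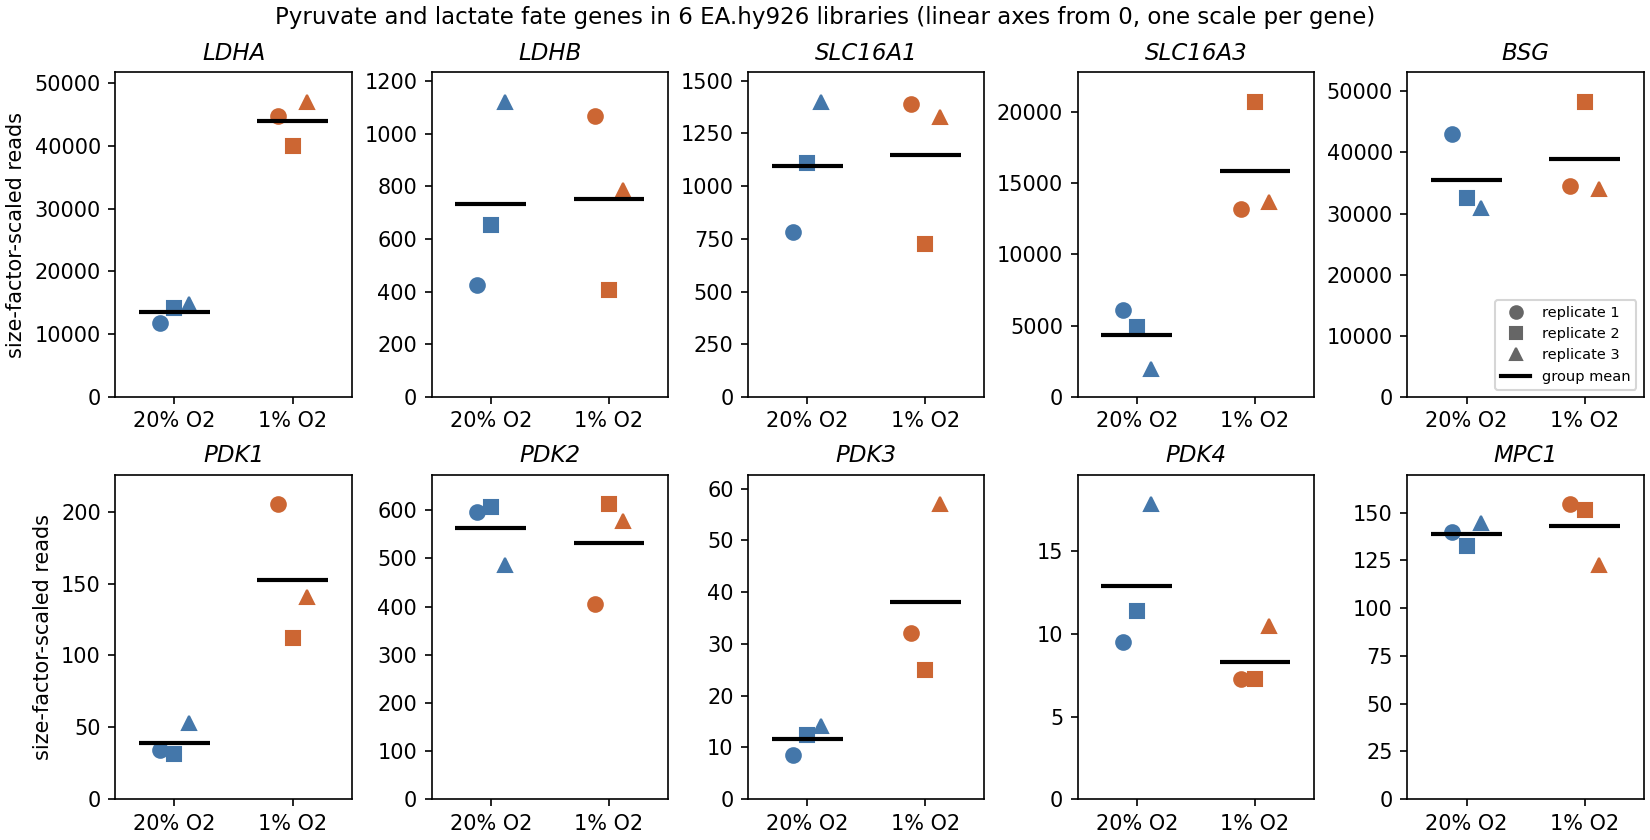
Size-factor-scaled reads (vertical axes, linear from 0, a separate scale for each gene) of the 10 members in 3 normoxia (20% O2, blue) and 3 hypoxia (1% O2, orange) libraries, with symbols for replicates and black bars for group means. LDHA, SLC16A3, PDK1 and PDK3 have all hypoxia points above all normoxia points, and the other 6 overlap.

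LDHA, the lactate-forming subunit, stood at 11768, 14130 and 14778 scaled reads in the normoxia libraries. In hypoxia it reached 44790, 39905 and 46995. Every hypoxia library was thus far above every normoxia library, and the replicates of each group lay close together. The group means were 13558 ± 1584 and 43896 ± 3628 (SD, n = 3 each), 3.24-fold higher in hypoxia. The limma log2 difference was 1.70 (SE 0.19, 95% interval 1.26 to 2.14, adjusted p = 0.0236), rank 9 by p-value among 10237 genes. LDHA alone took 0.0645% to 0.0866% of all gene reads in normoxia and 0.206% to 0.277% in hypoxia. After the GC correction its log2 difference was 1.66 with an adjusted p of 0.0126 in limma (0.215% of genes called), and its within-group SD on the log2 scale went from 0.15 to 0.05.

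The size of the LDHA difference was steady, from 1.60 to 1.77 on the log2 scale over 27 alternatives, but its call was not. Without normoxia replicate 1 or 2 the limma adjusted p was 0.164 and 0.154, and without hypoxia replicate 1, 2 or 3 it was 0.130, 0.121 and 0.280. Without normoxia replicate 3 it was 0.0222. It was also above the threshold with scaling to total reads (0.0665), with no filter on low values (0.0799, with 0.0181% of 22153 genes called) and with limma without trend and robust variance (0.0701). DESeq2 gave 5.35e-10, the lowest, and edgeR 0.0367. The highest adjusted p over the 27 alternatives was 0.284, and 14 of them were below 0.05. LDHA (ENSG00000134333) lies on chromosome 11 from 18394388 to 18408425, plus strand, in GENCODE 29 (GRCh38). Its processed pseudogenes LDHAP3, LDHAP4 and LDHAP7 held 260 reads over all libraries, 0.150% of the reads of LDHA.

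LDHB, the subunit common in oxidative tissues, did not follow LDHA. It stood at 427, 652 and 1121 scaled reads in normoxia and at 1066, 408 and 787 in hypoxia. The ranges coincide almost completely, and the lowest libraries were normoxia replicate 1 and hypoxia replicate 2, those with the highest correlation with GC content. The limma log2 difference was 0.04 with a 95% interval of -0.99 to 1.08 (adjusted p = 1.00). After the GC correction the log2 difference was 0.0024, and the within-group SD on the log2 scale was 0.69, against 0.70 before. LDHB (ENSG00000111716, chromosome 12 from 21635342 to 21757857, minus strand) shares 997 bp of exon, 33.4% of its exon length, with the same-strand gene model AC010197.2. That gene model had no values.

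The share of LDHA among these subunits was high in both groups. Per length, LDHA made up 93.0%, 91.2% and 86.4% of the summed LDHA and LDHB level in normoxia. In hypoxia the shares were 95.3%, 97.9% and 96.6%. The groups did not overlap, with means of 90.2% ± 3.43 and 96.6% ± 1.32 (SD, n = 3). Counted in scaled reads without length, the shares were 96.5%, 95.6% and 92.9% in normoxia and 97.7%, 99.0% and 98.4% in hypoxia. These shares rest on which transcripts set the length, since the summed exons of LDHA measure 6210 bp and its longest principal transcript 2416 bp.

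SLC16A3 encodes MCT4, the low-affinity transporter of highly glycolytic cells, and it had the largest log2 difference among the 7 members tested. Its normoxia libraries held 6125, 4906 and 1986 scaled reads. Its hypoxia libraries held 13212, 20698 and 13650. The lowest hypoxia library was more than 2 times the highest normoxia library, although normoxia replicate 3 lay well below the other normoxia libraries and hypoxia replicate 2 well above the other hypoxia libraries. The means were 4339 ± 2127 and 15853 ± 4202, 3.65-fold higher in hypoxia. The log2 difference of 1.98 (SE 0.42, 95% interval 1.01 to 2.95) did not pass limma over all genes (adjusted p = 0.439), at rank 36 by p-value.

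The alternatives differed on SLC16A3. DESeq2 called it (adjusted p = 0.00396) and edgeR did not (0.454). After the GC correction the log2 difference was 2.03 with an adjusted p of 0.0625 in limma, and with a filter on scaled reads and the same correction it was 0.0257. Adjusted p-values over the 27 alternatives ran from 0.00396 to 1.00, and 4 of them were below 0.05. The log2 difference ran from 1.498 to 2.31. The GC content of its longest transcript is 62.7%, and its within-group SD on the log2 scale was 0.66 before and 0.44 after the correction. Normoxia replicate 3 weighs most on its size: without it the log2 difference was 1.498. SLC16A3 (ENSG00000141526, chromosome 17 from 82228397 to 82261129, plus strand) shares 482 bp of exon with CSNK1D on the opposite strand, whose mean was 3256 ± 1320 in normoxia and 3394 ± 920 in hypoxia.

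SLC16A1 encodes MCT1, the widely expressed higher-affinity transporter. It held 781, 1110 and 1400 scaled reads in normoxia and 1389, 727 and 1327 in hypoxia. The groups overlap across nearly their whole range, and the library order is much like that of LDHB, with normoxia replicate 1 and hypoxia replicate 2 lowest. The log2 difference was 0.05 (95% interval -0.73 to 0.82, adjusted p = 1.00 in limma). Its GC content of 43.5% is near that of LDHB at 46.5%. With the GC correction its log2 difference was 0.011 and its within-group SD went from 0.47 to 0.30. SLC16A1 (ENSG00000155380) lies on chromosome 1 from 112911847 to 112957013, minus strand, and shares 175 bp of exon with the antisense gene SLC16A1-AS1, at 44.7 ± 9.12 and 44.7 ± 14.0 scaled reads.

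Per length, SLC16A3 made up 82.3%, 72.3% and 45.6% of the summed SLC16A1 and SLC16A3 level in normoxia. It made up 84.9%, 94.4% and 85.9% in hypoxia. The groups do not overlap, but hypoxia replicate 1 lay only just above normoxia replicate 1, and the low normoxia mean of 66.7% ± 19.0 is drawn by replicate 3.

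BSG, the transporters' chaperone, differed little. It was the most abundant member on the FPKM scale in both groups, but by mean scaled reads only in normoxia, with LDHA higher in hypoxia. Its libraries held 43017, 32555 and 30891 scaled reads in normoxia and 34514, 48291 and 34021 in hypoxia. The groups overlap, with normoxia replicate 1 and hypoxia replicate 2 highest. The log2 difference was 0.13 (95% interval -0.41 to 0.67, adjusted p = 1.00 in limma). With the GC correction, at a GC content of 61.6%, it was 0.18 and the within-group SD went from 0.27 to 0.07 on the log2 scale. BSG (ENSG00000172270) lies on chromosome 19 from 571277 to 583493, plus strand. It shares 140 bp of exon with the antisense gene BSG-AS1, at 44.9 ± 5.16 scaled reads in normoxia and 39.3 ± 9.43 in hypoxia.

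**Figure D2:**
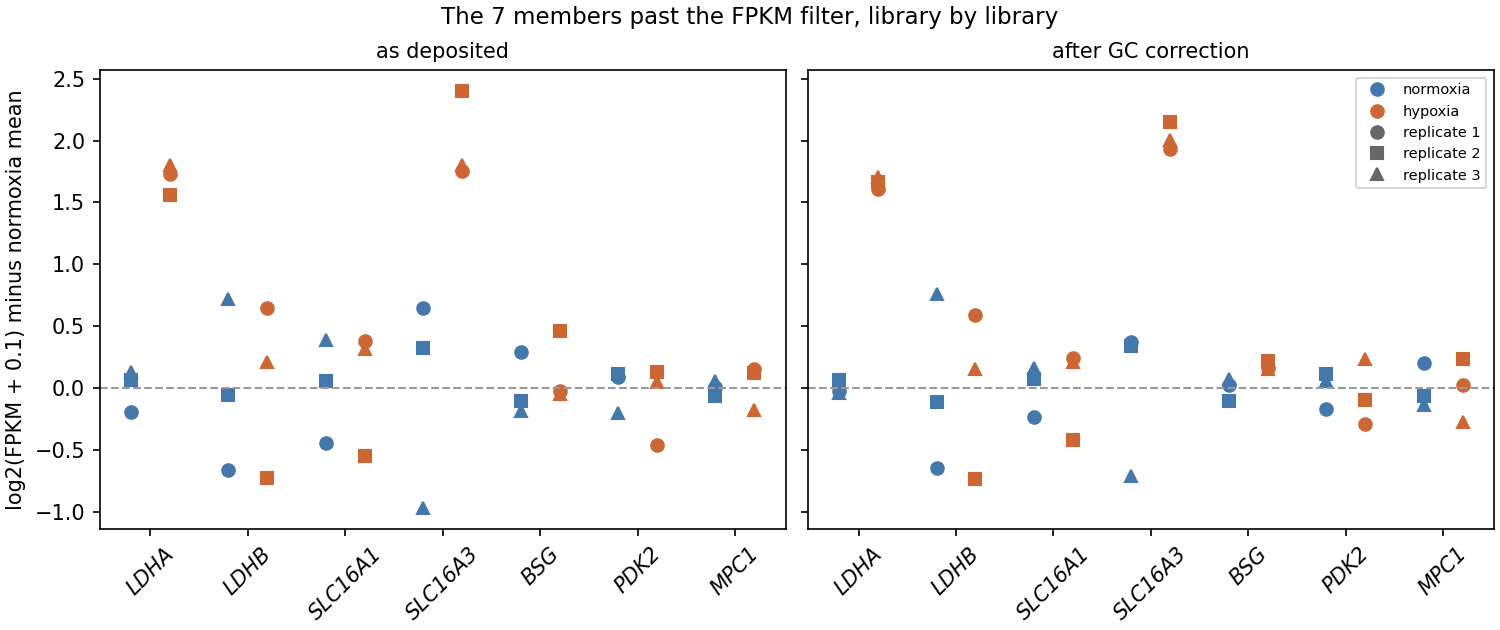
log2(FPKM + 0.1) of the 7 members past the FPKM filter in each library, minus the mean of the 3 normoxia libraries, as deposited (left) and after a GC correction (right), with normoxia in blue, hypoxia in orange and symbols for replicates. LDHA and BSG draw together after the correction (within-group SD 0.15 to 0.05 and 0.27 to 0.07), and LDHB does not (0.70 to 0.69). MPC1 spreads more after it (0.14 to 0.22).

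Among the pyruvate dehydrogenase kinases, the groups stood apart for PDK1 and PDK3 and overlapped for PDK2 and PDK4. PDK1, the kinase known as the hypoxia-responsive form, held 33.9, 31.3 and 52.7 scaled reads in normoxia and 205, 112 and 141 in hypoxia. Every hypoxia library was at least 2 times the highest normoxia library. The means were 39.3 ± 11.7 and 153 ± 47.8, 3.89-fold higher in hypoxia. PDK1 missed the FPKM filter in all 6 libraries, since its exons sum to 14883 bp, although it had at least 10 scaled reads in each. It was therefore fitted on log2(scaled reads + 1), a choice made after seeing the data. There its log2 difference was 1.92 (SE 0.38, 95% interval 1.07 to 2.78, adjusted p = 0.306 in limma), with 0.0899% of 13355 genes called.

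PDK1 passed 2 other tests on the same 13355 genes. DESeq2 gave an adjusted p of 0.00107 and limma after the GC correction 0.0361, whereas edgeR gave 0.260 (0.0824% of genes called). Over its 10 alternatives the adjusted p ran from 0.00107 to 1.00, and 2 of them were below 0.05. By DESeq2, 3 of 10 members passed, LDHA, SLC16A3 and PDK1, all higher in hypoxia, beside 0.42% of genes called in either direction and 0.39% higher in hypoxia. The same 3 passed limma after the GC correction, beside 0.225%. In the 6 fits that left out a library, the log2 difference of PDK1 stayed between 1.69 and 2.15. It passed limma in none of them (lowest adjusted p 0.0591). PDK1 (ENSG00000152256) lies on chromosome 2 from 172555373 to 172608669, plus strand. It shares 445 bp of exon with the antisense gene PDK1-AS1, which held 7.41, 5.68 and 6.58 scaled reads in normoxia and 36.3, 57.0 and 73.2 in hypoxia (log2 difference 2.85, adjusted p = 0.101 in limma). Whether reads were counted by strand is not stated in the labels, so reads of the shared stretch cannot be told apart.

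PDK3, a kinase described as high in activity, was sparse. It held 8.47, 12.3 and 14.1 scaled reads in normoxia and 32.2, 24.9 and 57.0 in hypoxia. The groups did not overlap, and the means of 11.6 ± 2.88 and 38.0 ± 16.9 differed 3.27-fold. Its log2 difference on scaled reads was 1.57 (95% interval 0.49 to 2.65), with an adjusted p of 1.00 in limma, 0.399 by DESeq2 and 1.00 by edgeR, the range over its 10 alternatives being 0.399 to 1.00. PDK4, the kinase best known for responding to fasting, was at the edge of detection, with 9.53, 11.4 and 17.9 scaled reads in normoxia and 7.26, 7.26 and 10.5 in hypoxia. The groups of PDK4 overlap and its log2 difference of -0.55 had a 95% interval of -1.73 to 0.62 (adjusted p = 1.00 in limma). PDK3 (ENSG00000067992) lies on chromosome X from 24465221 to 24541862, plus strand, and PDK4 (ENSG00000004799) on chromosome 7 from 95583499 to 95596491, minus strand.

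PDK2, the widely expressed kinase, was the main PDK transcript in both groups. It held 596, 606 and 486 scaled reads in normoxia and 404, 613 and 578 in hypoxia. The groups overlap, and hypoxia replicate 1 was the lowest library. The log2 difference was -0.10 (95% interval -0.69 to 0.50, adjusted p = 1.00 in limma). With the GC correction it was -0.05, and the within-group SD went from 0.26 to 0.21 on the log2 scale. PDK2 (ENSG00000005882, chromosome 17 from 50094737 to 50112152, plus strand) shares 2113 bp of exon, 38.6% of its exon length, with SAMD14 on the opposite strand, which held 0 to 2.07 scaled reads.

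The shares of PDK1 and PDK2 within the kinase pool stood apart between the groups. Per length, PDK2 made up 94.7%, 94.0% and 89.6% of the summed PDK1 to PDK4 level in normoxia and 77.1%, 88.8% and 81.9% in hypoxia, with no overlap. PDK1 made up 1.98%, 1.78% and 3.57% in normoxia and 14.4%, 5.97% and 7.34% in hypoxia. In scaled reads without length, the mean share of PDK1 was 6.39% ± 2.47 in normoxia and 21.4% ± 8.96 in hypoxia. With the length of the principal transcript in place of the summed exons, it was 1.61% ± 0.65 and 6.08% ± 3.07. PDK3 then had the larger mean share, 3.50% ± 1.13 in normoxia and 10.5% ± 3.86 in hypoxia, against 2.16% ± 0.69 and 6.57% ± 2.49 with the summed exons. PDK1 was below PDK2 in every library on all 3 scales, whereas the order of PDK1 and PDK3 depends on the length used and on the library. With the summed exons, PDK3 was above PDK1 in normoxia replicate 2 (2.11% against 1.78%) and hypoxia replicate 3 (8.95% against 7.34%). It was below PDK1 in the remaining libraries.

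**Figure D3:**
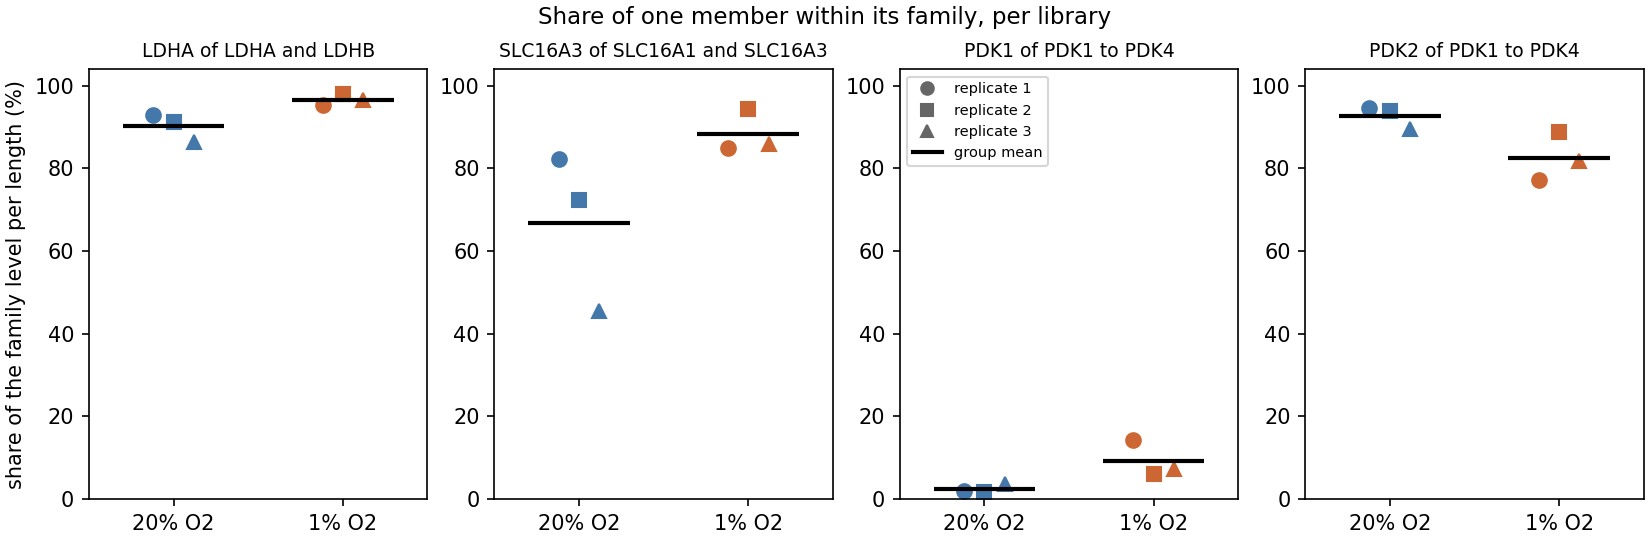
Share of the named member in the summed level of its family (vertical axes, percent of the level per length, 0 to 100) in each normoxia (20% O2) and hypoxia (1% O2) library, with symbols for replicates and black bars for group means. The groups do not overlap in any panel, and the gap is narrowest for PDK2, with 88.8% in hypoxia replicate 2 and 89.6% in normoxia replicate 3.

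MPC1, a subunit of the pyruvate carrier, varied little in scaled reads. It held 140, 133 and 145 in normoxia and 155, 151 and 123 in hypoxia. Normoxia and hypoxia libraries overlap, and the log2 difference was 0.03 (95% interval -0.49 to 0.55, adjusted p = 1.00 in limma). After the GC correction the log2 difference was -0.0060, and the within-group SD on the log2 scale went up from 0.14 to 0.22. MPC1 (ENSG00000060762) lies on chromosome 6 from 166364919 to 166383013, minus strand. Its partner MPC2 stood at 305 ± 50.2 in normoxia and 307 ± 67.6 in hypoxia.

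**Figure D4:**
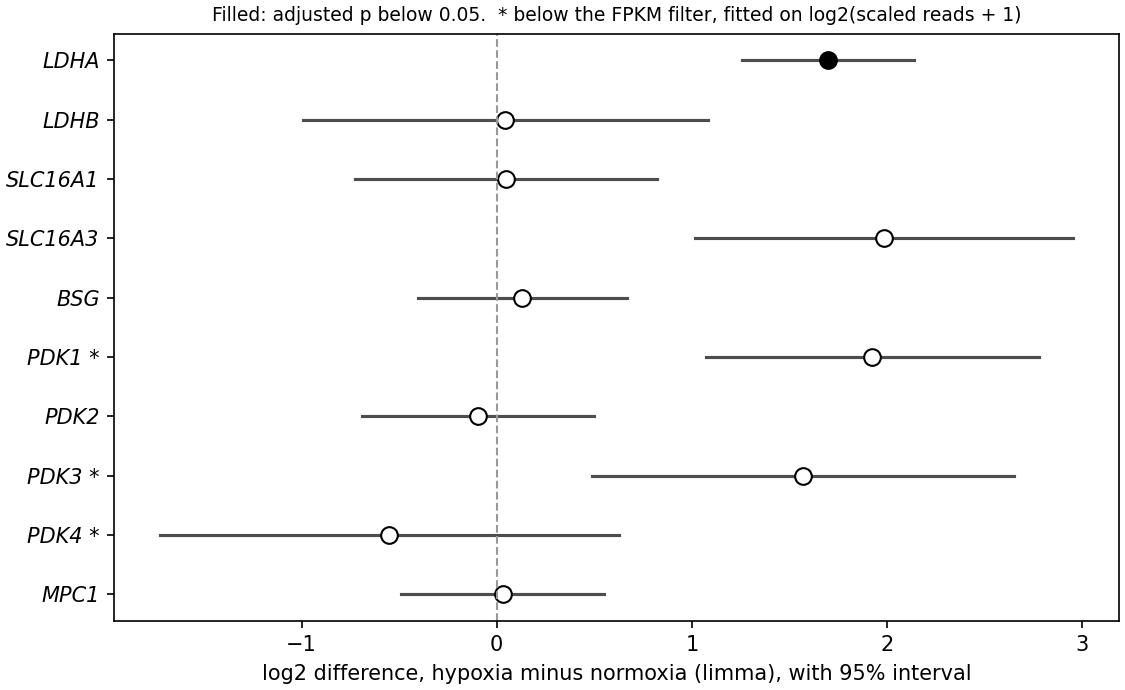
Log2 difference of each member, hypoxia minus normoxia, from limma (horizontal axis), with 95% intervals and a filled point for an adjusted p below 0.05; genes with an asterisk were below the FPKM filter and were fitted on log2(scaled reads + 1). LDHA, SLC16A3, PDK1 and PDK3 have intervals above 0, from 1.26 to 2.14 for LDHA and from 0.49 to 2.65 for PDK3, and the other 6 intervals span 0.

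On the FPKM scale the order of the members in normoxia was BSG (523 ± 96.9), LDHA (122 ± 14.3), SLC16A3 (27.0 ± 13.2), LDHB (13.8 ± 6.65), SLC16A1 (11.6 ± 3.27), PDK2 (5.75 ± 0.68) and MPC1 (5.04 ± 0.22). PDK4, PDK1 and PDK3 followed at 0.16 ± 0.05, 0.15 ± 0.04 and 0.13 ± 0.03. Libraries of SLC16A3 and LDHB overlapped, as did those of LDHB and SLC16A1, of PDK2 and MPC1, and of the 3 lowest kinases. In hypoxia LDHA, at 396 ± 32.7, came closer to BSG, at 574 ± 119. SLC16A3, at 98.7 ± 26.2, then lay clear of LDHB, at 14.1 ± 6.20. PDK1 reached 0.57 ± 0.18 and PDK3 0.43 ± 0.19, both above PDK4 at 0.10 ± 0.02 in every library and still far below PDK2 at 5.43 ± 1.14. In all, the 10 members took 0.293% to 0.345% of gene reads in normoxia and 0.520% to 0.576% in hypoxia. In a bulk culture, more RNA in every cell and more cells with the transcript cannot be told apart.

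The genes most like LDHA and SLC16A3 over the libraries were sought among 5290 other protein-coding genes with a mean FPKM of at least 5, by the root mean square difference of mean-centred log2 levels over the 6 libraries. Nearest to LDHA were C4orf3 (0.16), PGK1, a glycolytic enzyme (0.24), and TMEM45A (0.24). Nearest to SLC16A3 were ALDOA, the glycolytic aldolase (0.11), PGM1, a phosphoglucomutase (0.23), and SLC2A3, the glucose transporter GLUT3 (0.33). ALDOA held 279, 184 and 81.8 scaled reads in normoxia and 555, 855 and 498 in hypoxia, and 42.3% of its exon length is shared with the same-strand gene AC093512.2. All these genes were read in the same 6 libraries, whose group labels and GC leans touch each of them, so likeness is a description only.

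The other genes of pyruvate and lactate handling gave no call. Of 33 genes in 3 lists, 25 were in the table and 18 passed the FPKM filter. None passed limma, DESeq2 or edgeR over all genes, and 1 had an unadjusted limma p below 0.05. Their median log2 difference was 0.02. Among relatives of the members, LDHAL6B, EMB, SLC5A8, SLC5A12, HCAR1 and MPC1L had no values. The testis isoform LDHC held 0 scaled reads in normoxia and 2.07 to 2.85 in hypoxia, and the D-lactate dehydrogenase LDHD stood at 55.9 ± 24.7 and 48.5 ± 7.12.

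The target of the kinases showed no difference past the test. All 8 tested genes of the pyruvate dehydrogenase complex and its phosphatases overlapped between groups, 4 with a positive and 4 with a negative log2 difference (median -0.08). PDHA1, the subunit that the kinases phosphorylate, stood at 959 ± 156 in normoxia and 1058 ± 143 in hypoxia. PDHB, its partner in the E1 enzyme, had the largest difference, 0.37 (95% interval -0.27 to 1.01). PDPR, a regulator of the phosphatase, had -0.33 (95% interval -1.06 to 0.40), and DLAT, the E2 core, -0.27 (95% interval -0.89 to 0.36).

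Of 8 tested genes of other pyruvate routes, 1 had groups apart, higher in hypoxia, beside 4.77% of the 10237 genes tested. This was PKM, the pyruvate kinase that makes pyruvate, with 68735 to 86823 scaled reads in normoxia and 96523 to 133482 in hypoxia. Its log2 difference was 0.53 (95% interval 0.05 to 1.01) and did not pass limma (adjusted p = 1.00). The malic enzyme ME1 had a difference of -0.32 (95% interval -0.99 to 0.36) and the alanine transaminase GPT2 0.31 (95% interval -0.26 to 0.87). Pyruvate carboxylase, PC, stood at 828 ± 212 and 844 ± 259.

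**Figure D5:**
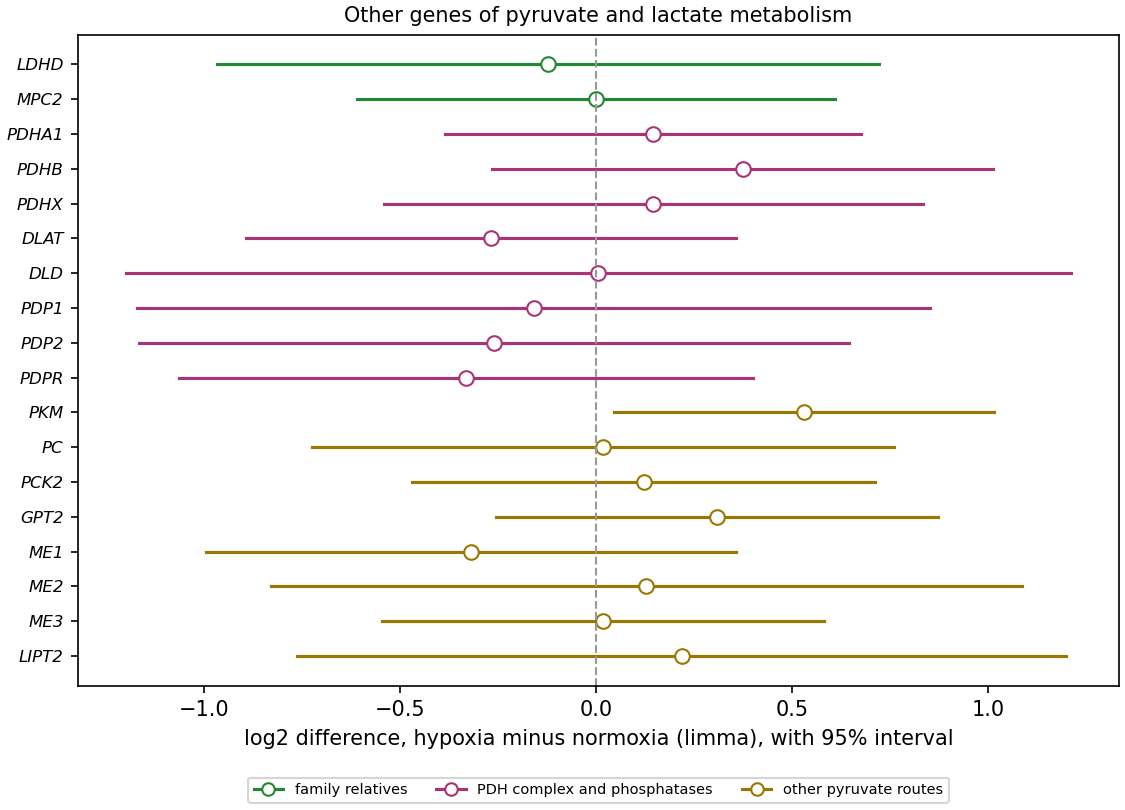
Log2 difference, hypoxia minus normoxia, from limma (horizontal axis) with 95% intervals for the 18 tested genes of 3 other lists of pyruvate and lactate metabolism, coloured by list. PKM has the only interval that lies above 0 (0.05 to 1.01), and no gene passed the test over all genes.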

How the data were processed

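RNA of 6 EA.hy926 samples, 3 per group, was extracted with Trizol and made into NEBNext Ultra libraries, per the labels' protocols. The submitters' processing notes name CASAVA, HISAT2 2.0.5 and featureCounts 1.5.0-p3, and the mouse build mm9, although all 22153 identifiers are human Ensembl genes found in GENCODE 29; the human build, annotation and strand setting are not stated in the sources used here. The deposited signal is read counts divided by a size factor per library (0.944 to 1.06), not FPKM as the table's name says: 100% of values in each library were whole multiples of a step (tolerance 0.05 of a step). Values were put on an FPKM scale with summed exon lengths and the mean library total. The planned test was on FPKM and was kept on this scale.

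Genes with FPKM of at least 1 in at least 3 libraries (10237) were fitted with limma 3.58.1 (R 4.3.3) on log2(FPKM + 0.1), group the only term, with trend and robust variance, two-sided, Benjamini-Hochberg over all genes, threshold 0.05. Fold changes on this scale understate those of low genes, and folds in the text are ratios of mean scaled reads. DESeq2 1.42.0 and edgeR 4.0.16 were run on the recovered reads. The GC correction removed a loess trend (span 0.3) of each library's deviation from the gene mean on transcript GC content. A filter of 10 scaled reads in at least 3 libraries, with log2(scaled reads + 1), was added after seeing the data, as was the principal transcript length. Reads for the 10237 genes were simulated 10 times, with 200 genes changed in each simulation. The fit called 9.02%, 77.9% and 96.2% of the genes changed 2-, 4- and 8-fold. In the data the fit called 10 genes, and the Benjamini-Hochberg bar depends on how many genes change. These rates therefore cannot be read as the chance of calling a member. How they move with fewer changed genes or with the GC lean of the libraries was not tested.

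The members and lists were chosen with earlier results of these data known. All members are named. From each other list the 2 to 4 largest differences are named, and 3 genes with the nearest profile for LDHA and for SLC16A3. LDHC, PDHA1 and PC were named after their values were seen. Naming the genes that share member exons was part of the plan. Symbols came from the name table (21988 identifiers matched) and otherwise from GENCODE.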

Additional observations from a re-analysis of the deposited data

How the results depend on the processing

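The direction of LDHA, SLC16A3, PDK1 and PDK3 was the same under every alternative that gave them a value. The number of genes past the limma test was 10, and it was 4 without a low-value filter, 22 after the GC correction, 30 with the filter on scaled reads and the GC correction, 50 by DESeq2 and 56 by DESeq2 with the filter on scaled reads. Leaving out normoxia replicate 1, 2 or 3 gave 4, 5 and 24 genes, and leaving out hypoxia replicate 1, 2 or 3 gave 2, 3 and 1. With the filter on scaled reads the range was 2 to 24. The number of members past the test was 1, and it was 0 with no filter, with scaling to total reads and with limma without trend and robust variance, 2 by DESeq2 and 3 with the filter on scaled reads by DESeq2 or after the GC correction. It was 0 without any library but normoxia replicate 3, where it was 1, with either filter. The median log2 difference of the members tested, 0.05, lay between 0.036 and 0.34 without 1 library, and with the filter on scaled reads between 0.076 and 0.41, the highest values coming without hypoxia replicate 2 and without normoxia replicate 3. No other pyruvate or lactate gene passed under any of the 27 alternatives.

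The sign of small differences turned. With scaling to total reads, which moved the median of all genes to -0.07, LDHB was at -0.031, SLC16A1 at -0.027 and MPC1 at -0.042, and after the GC correction MPC1 was at -0.0060. Without 1 library LDHB ranged from -0.29 to 0.43, SLC16A1 from -0.18 to 0.34, BSG from -0.035 to 0.28, PDK2 from -0.21 to 0.086 and MPC1 from -0.028 to 0.14. With the filter on scaled reads the upper ends were 0.35 for SLC16A1 and 0.087 for PDK2, and the other ends differed by less than 0.01. The cause was not tested.

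Whether same-numbered libraries were paired cannot be told from these values. Their deviations from the group means correlated at -0.40, 0.24 and 0.22 across genes, and not every library was most like its own number. The highest correlations joined different numbers: 0.61 for normoxia replicate 1 with hypoxia replicate 2, and 0.50 for normoxia replicate 3 with hypoxia replicate 1. The same deviations hold the GC lean of each library, and its part in these correlations was not tested. With a replicate block, which joins same-numbered libraries, limma called 19 genes and 2 members. In that fit limma gave SLC16A3 an adjusted p of 0.0386 and LDHA 0.0238. Depth limits PDK3 and PDK4 most, at 7.26 to 57.0 scaled reads per library.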

Other observations

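The wider SLC16 family was looked at after the values of the members were seen. SLC16A13 and SLC16A5 are transporters of the same family. On the FPKM scale SLC16A13 had means of 42.7 ± 24.6 in normoxia and 31.0 ± 19.2 in hypoxia, and SLC16A5 of 8.70 ± 3.89 and 7.42 ± 3.77. SLC16A13 held 2514, 1582 and 683 scaled reads in normoxia and 692, 1980 and 797 in hypoxia. SLC16A5 held 670, 522 and 247 in normoxia and 248, 644 and 336 in hypoxia. In both genes the groups overlap, and normoxia replicate 1 and hypoxia replicate 2 were the highest libraries of their groups, as for BSG. Their log2 differences were -0.44 and -0.23 (adjusted p = 1.00 for each in limma). SLC16A7, which encodes the high-affinity transporter MCT2, held 43.4 and 55.9 scaled reads in normoxia replicates 1 and 2 and 236 in replicate 3, against 51.8 to 90.3 in hypoxia. SLC16A11 stood at 39.3 ± 28.4 in normoxia and at 39.5 ± 37.7 in hypoxia.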
